A study of Mus musculus with 4 samples.

Results

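Natural killer (NK) cell receptors and cytotoxic effector genes were examined in mouse lung, with and without Rab44 and with and without OVA-induced allergic inflammation. The 10 genes were chosen by name from the 41079 genes of the deposited table, and all 10 were found there: Gzma, Gzmb, Prf1 and Nkg7 of the cytotoxic granule, the receptors Ncr1, Klrb1c, Klrd1 and Klre1, the transcription factor Eomes, and the cytokine Ifng. RNA from lung was sequenced as 4 libraries, 1 for each combination of genotype (WT or Rab44-KO) and condition (normal or OVA-induced), and the study compared genotypes in each condition to learn whether loss of Rab44 alters lung gene expression. All mice were of the C57BL/6 background, and the study's animal experiments used female littermates 8 to 14 weeks old. Rab44-KO mice carried a Rab44 gene edited by CRISPR/Cas9, so every cell type of the lung lacked it. OVA-induced mice received intraperitoneal injections of 100 μg OVA in alum (days 0, 7 and 14) and then 100 μg OVA in 50 μL intranasally for 4 days, and the study's methods place lung collection on day 21. The labels list the normal mice as untreated, while the protocol text also names a challenge with PBS after sensitization, so whether the normal mice received PBS is not clear. The labels also word the time of collection differently, as 21 days after OVA. How many mice gave RNA to a library is not given in the sources used here.

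Total counts ran from 18112901 to 19910236 per library, and the targeted gene Rab44 had 251 and 1 counts in WT and Rab44-KO lungs of the normal pair and 810 and 0 in those of the OVA-induced pair. Where 4 values are given for a gene, they follow this order. All 7 epithelial, endothelial and fibroblast markers of lung were abundant, with 4274 counts of Col1a1 in OVA-induced Rab44-KO lungs as their lowest value. They moved in both directions between the OVA-induced genotypes. The range was from -1.01 on the log2 scale for Sftpc (361981 to 181126 counts), the surfactant protein of alveolar type II cells, to 0.69 for Cdh5 of endothelium. Their median was -0.19, or 0.18 after removal of the trend with gene length, where none of them passed 2-fold. All 7 tested housekeeping genes were lower in the OVA-induced Rab44-KO library, 1 of them (Ppia, -1.12) beyond 2-fold, with a median log2FC of -0.75, or -0.34 after removal of the trend with gene length. The part of these shifts in the values of the 10 genes was not tested. Levels are given as CPM, the count relative to a library total scaled by the TMM method, and as TPM where genes are compared with each other. The log2 fold change (log2FC) is the log2 ratio of CPM between 2 libraries. A gene was tested for a fold where the higher library held at least 10 counts, and it is said to have risen or fallen where the log2FC passed 1, which is 2-fold. With 1 library per genotype and condition there is no replicate check and no p-value, and every comparison is between libraries. Intervals of CPM and of the log2FC between 2 libraries are exact 95% intervals of the counts and cover counting error only. Those of differences of log2FC and of ratios to marker lists are approximate and also cover counting error only. An interval of a median is taken over the genes of a list, which are not replicates. In whole lung RNA, fewer cells of a type and less RNA per cell cannot be told apart.

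NK cells are innate lymphocytes that kill infected or transformed cells without prior sensitization. They release granules in which perforin opens the target membrane to granzymes, which are serine proteases that trigger cell death. Activating and inhibitory receptors, many of them C-type lectin-like molecules encoded in the NK gene complex, set whether a cell is attacked, and interferon gamma (IFN-γ) from NK and T cells activates macrophages and antigen presentation. Most of these genes are not unique to NK cells. Activated CD8 T cells also use Gzma, Gzmb, Prf1, Nkg7, Klrd1, Eomes and Ifng, and Gzmb is also made by mast cells and basophils, whereas Ncr1 and Klre1 are more restricted to NK cells and related innate lymphocytes.

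In the GENCODE M21 annotation of GRCm38, 3 of the 10 genes lie in the NK gene complex on chromosome 6: Klrb1c (chr6:128778485-128789215, minus strand), Klre1 (chr6:129577905-129585827, plus strand) and Klrd1 (chr6:129591782-129598775, plus strand). Klre1 and Klrd1 are neighbors, with 5954 bases between them. Nkg7 (chr7:43437073-43438249) and Ncr1 (chr7:4337724-4345164) are on the plus strand of chromosome 7, and Prf1 (chr10:61297833-61304680) and Ifng (chr10:118441046-118445892) on that of chromosome 10. Gzma (chr13:113093825-113100981) and Gzmb (chr14:56258838-56262260) are on minus strands, and Eomes (chr9:118478212-118486132) is on the plus strand. Exons of another annotated gene cover 13.9% of the exonic bases of Klrb1c (Gm44511, same strand), 25.9% of those of Ifng (Gm49751, same strand) and 2.84% of those of Eomes (Gm33460, opposite strand). How reads in such stretches were assigned is not given in the sources used here, so the counts of these 3 genes carry that uncertainty. Gene starts in the deposited table mostly differ from this annotation, so these overlaps may not be those of the gene models used for counting. No read-length stretch of 150 bases in the transcripts of the other 7 genes occurred in a transcript of another gene.

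RefSeq promoter windows of GRCm38.p6, from 250 bases before to 50 bases after a transcript start, were held for 9 of the 10 genes, Klrd1 being the exception, in 11 windows. The windows of the 4 granule genes are shown because Gzma and Nkg7 differed more than 2-fold between genotypes after OVA induction and Gzmb and Prf1 did not. Capitals mark matches, on either strand, to AGGTGT (letters bound by T-box factors such as Eomes), TGTGGT (the core of RUNX sites) and TGACTCA (an AP-1 site), and no matches overlapped. The windows are chr13:113100932-113101231 (minus) for Gzma, chr7:43436888-43437187 (plus) for Nkg7, chr14:56262285-56262584 (minus) for Gzmb and chr10:61297586-61297885 (plus) for Prf1.
Gzma: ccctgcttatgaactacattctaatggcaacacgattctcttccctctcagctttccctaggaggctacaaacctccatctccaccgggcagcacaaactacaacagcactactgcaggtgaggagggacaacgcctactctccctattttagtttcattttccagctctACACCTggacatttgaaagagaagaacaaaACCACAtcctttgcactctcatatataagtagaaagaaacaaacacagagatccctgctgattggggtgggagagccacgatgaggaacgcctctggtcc
Nkg7: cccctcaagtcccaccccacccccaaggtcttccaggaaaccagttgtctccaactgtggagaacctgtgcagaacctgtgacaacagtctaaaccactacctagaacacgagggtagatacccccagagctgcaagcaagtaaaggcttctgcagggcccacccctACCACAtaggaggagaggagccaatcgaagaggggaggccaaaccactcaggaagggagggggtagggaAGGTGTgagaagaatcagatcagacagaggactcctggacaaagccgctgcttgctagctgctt
Gzmb: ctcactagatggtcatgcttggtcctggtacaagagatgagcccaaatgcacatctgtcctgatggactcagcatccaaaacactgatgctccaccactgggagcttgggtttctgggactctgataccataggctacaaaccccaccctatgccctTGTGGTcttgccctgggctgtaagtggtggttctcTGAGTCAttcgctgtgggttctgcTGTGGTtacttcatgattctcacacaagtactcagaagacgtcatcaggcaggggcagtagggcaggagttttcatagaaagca
Prf1: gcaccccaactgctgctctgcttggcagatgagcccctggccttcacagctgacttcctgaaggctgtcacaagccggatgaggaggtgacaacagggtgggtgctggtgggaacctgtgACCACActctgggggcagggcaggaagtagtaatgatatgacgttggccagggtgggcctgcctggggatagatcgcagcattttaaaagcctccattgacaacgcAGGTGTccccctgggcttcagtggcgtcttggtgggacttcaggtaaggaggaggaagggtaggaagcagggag
The RUNX letters occurred in 8 of the 11 windows, covering 7 of the 9 genes, against 16.8% of all 32851 promoter windows. The T-box letters occurred in 3 windows, those of Gzma, Nkg7 and Prf1, against 13.7% of all windows, and the AP-1 letters only in that of Gzmb among the 11, against 5.2%. Gzma and Nkg7 carried 1 T-box and 1 RUNX match each, and so did Prf1. The letters therefore did not separate the granule genes that fell from Prf1. These matches are descriptions of the reference sequence and not binding sites measured here.

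Per length, Gzma was the most abundant of the 10 genes in every library, with TPM of 84.2 and 74.7 in the normal pair (WT, then Rab44-KO) and 90.6 and 50.6 in the OVA-induced pair. Nkg7, a granule membrane protein of NK and T cells, was second throughout, with TPM of 16.9, 21.5, 34.5 and 16.5 in the same order. Klrd1 came next, with TPM between 9.92 and 13.3, and Gzmb ran from 6.67 to 8.19. The ranges of these 4 genes over the libraries did not overlap. Ncr1 (4.88 to 7.72), Prf1 (4.4 to 4.83) and Klrb1c (3.73 to 5.43) followed with ranges that overlapped or nearly touched. Klre1 ran from 1.94 to 4.88, Eomes from 0.611 to 1.5 and Ifng from 0.112 to 1.8, and Ifng was last in all libraries but that of OVA-induced WT lungs, where Eomes was last. The ratio of Gzma to Gzmb TPM was 10.3, 11.2 and 11.7 in the first 3 libraries and 6.27 in OVA-induced Rab44-KO lungs.

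**Figure D1:**
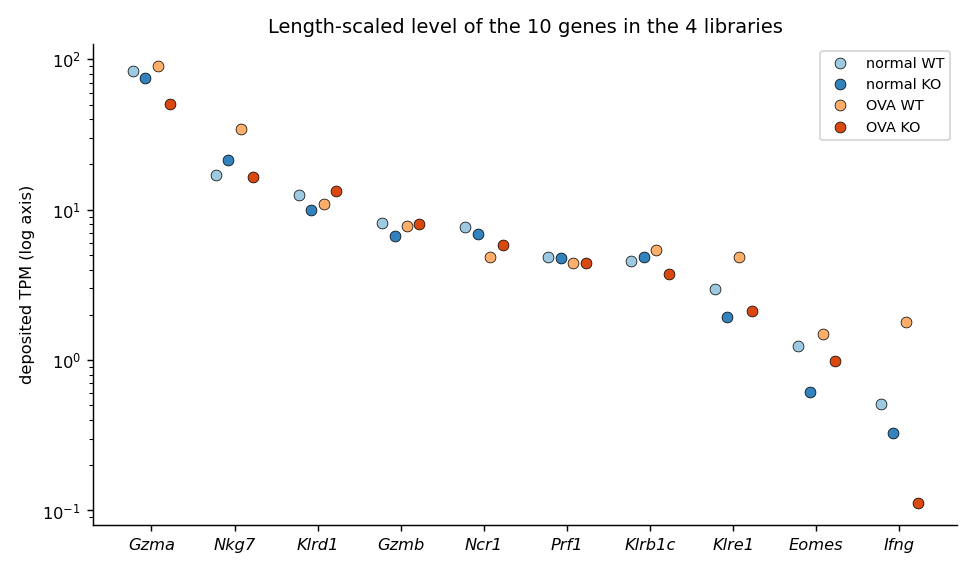
Deposited TPM (log axis) of the 10 genes in the 4 libraries, 1 point per library, with genes ordered by their level in normal WT lungs. Gzma lies highest in every library, and its lowest point is the OVA-induced Rab44-KO library at 50.6 TPM.

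Among the granule genes, Gzma and Nkg7 were lowest in OVA-induced Rab44-KO lungs, whereas Gzmb and Prf1 stayed near the same level in all 4 libraries. Gzma, granzyme A, had 599 counts (31.2 CPM, interval 28.7 to 33.8) in normal WT lungs and 496 (27.2 CPM, 24.8 to 29.7) without Rab44. The OVA-induced pair had 734 (37.9 CPM, 35.2 to 40.7) in WT and 329 (16.9 CPM, 15.1 to 18.8) in Rab44-KO lungs. It fell 2.25-fold in Rab44-KO against WT lungs after OVA induction, a log2FC of -1.17 (-1.36 to -0.98), and the normal libraries gave -0.20 (-0.37 to -0.02). Nkg7 had 111, 132, 258 and 99 counts in the same order, so that OVA-induced WT lungs stood alone above the other three. The Rab44-KO over WT log2FC of Nkg7 was -1.39 (-1.74 to -1.05) after OVA induction and 0.32 (-0.05 to 0.70) in normal lungs. Gzmb, granzyme B, had 100, 76, 108 and 90 counts, and its log2FC was -0.27 (-0.69 to 0.14) after OVA induction and -0.32 (-0.77 to 0.12) in normal lungs. Prf1, perforin, had 104, 96, 108 and 87 counts, with log2FC of -0.32 (-0.75 to 0.10) and -0.04 (-0.46 to 0.37). The intervals of Gzmb and Prf1 included 0 in both conditions and did not reach a 2-fold fall.

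Of the receptors, Klre1 and Klrb1c were lower without Rab44 after OVA induction, and Ncr1 and Klrd1 were nearly level. Klre1, a lectin-like receptor of mouse NK cells, had 48 and 29 counts in the normal pair and 89 and 31 in the OVA-induced pair, highest in OVA-induced WT lungs. It fell 2.89-fold between genotypes after OVA induction, a log2FC of -1.53 (-2.17 to -0.93). Klrb1c, which encodes the NK1.1 antigen of C57BL/6 mice, had 94, 93, 127 and 70 counts, with log2FC of Rab44-KO over WT of 0.06 (-0.37 to 0.49) in normal and -0.87 (-1.31 to -0.44) in OVA-induced lungs. Klrd1, the CD94 chain that pairs with NKG2 receptors, had 127, 94, 126 and 123 counts. Its log2FC after OVA induction was -0.04 (-0.41 to 0.33), although its neighbor on the chromosome, Klre1, fell. Ncr1, the activating receptor NKp46, had 93, 78, 67 and 64 counts, with a log2FC of -0.08 (-0.59 to 0.44) between genotypes after OVA induction. The 2 normal libraries held more Ncr1 than either OVA-induced one, and OVA-induced over normal was -0.48 (-0.96 to -0.02) in WT and -0.38 (-0.88 to 0.11) in Rab44-KO lungs.

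Eomes and Ifng had few counts. Eomes, the T-box factor that marks mature NK cells, had 37 and 17 counts in the normal pair and 51 and 27 in the OVA-induced pair. Its genotype log2FC was -1.04 (-1.97 to -0.18) in normal lungs, just past 2-fold, and -0.92 (-1.66 to -0.23) in OVA-induced lungs, just short of it. Both Rab44-KO libraries were thus lower than the WT library of the same condition. Ifng had 5, 3, 20 and 1 counts, and all but the OVA-induced WT library had at most 5 counts. The OVA-induced Rab44-KO library was 20.1-fold lower than the OVA-induced WT library, with an interval of 3.22 to 834 because it rests on 1 count. The normal libraries did not reach the count minimum, so no fold is given for them.

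**Figure D2:**
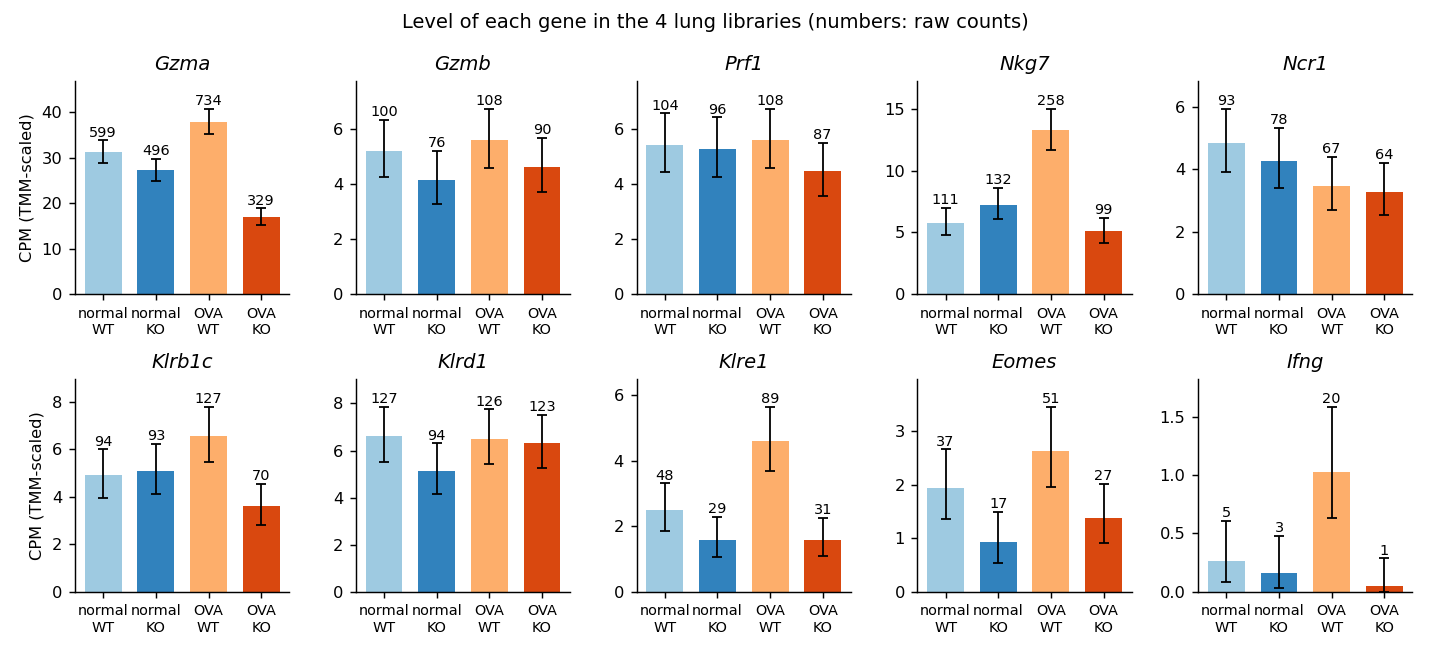
CPM of each of the 10 genes in the 4 libraries (bars, 1 library each; error bars, exact 95% Poisson intervals of the count; numbers, raw counts). Gzma and Nkg7 differ between the OVA-induced libraries by more than their intervals, and Gzmb, Prf1, Ncr1 and Klrd1 do not.

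Over all 10 genes, 4 fell more than 2-fold in OVA-induced Rab44-KO against WT lungs (Gzma, Nkg7, Klre1 and Ifng) and none rose. Among the 19259 genes tested in this comparison, 7.34% fell and 8.4% rose (1413 and 1617 genes). These were 1104 and 1738 genes without the trend with gene length, and 777 and 2602 with TPM. The median log2FC of the 10 genes was -0.90, against -0.02 over all tested genes. This median was -0.66 without the trend with gene length and -0.54 with TPM. Its order-statistic interval in the main setting, -1.53 to -0.08, is taken over the 10 genes of the same libraries. The genes are not replicates, so this interval gives no spread over mice. All 10 values were below 0, although with TPM, which raised the log2FC of all genes by a median of 0.33, Gzmb (0.05), Prf1 (0.01), Ncr1 (0.25) and Klrd1 (0.28) were above it and Gzma (-0.84) did not pass 2-fold. In normal lungs, 9 genes were tested and 1, Eomes, fell, against 2.0% of 18718 tested genes, and none rose against 2.77%. The median log2FC there was -0.20 (interval over the 9 genes, -0.65 to 0.06). The genotype log2FC after OVA induction minus that in normal lungs was -1.71 (-2.21 to -1.22) for Nkg7, -0.97 (-1.22 to -0.71) for Gzma and -0.93 (-1.52 to -0.34) for Klrb1c, and for Klre1 it was -0.88 (-1.76 to 0.01). For Gzma it was -0.51 without the trend with gene length and -0.67 with TPM, both outside that interval. Over the 9 genes other than Ifng its median was -0.28, and 0.02 with TPM. For Gzmb, Prf1, Ncr1, Klrd1 and Eomes this difference lay between -0.28 and 0.32, with intervals that included 0. These intervals hold counting error only, so the difference between conditions was not tested over mice.

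**Figure D3:**
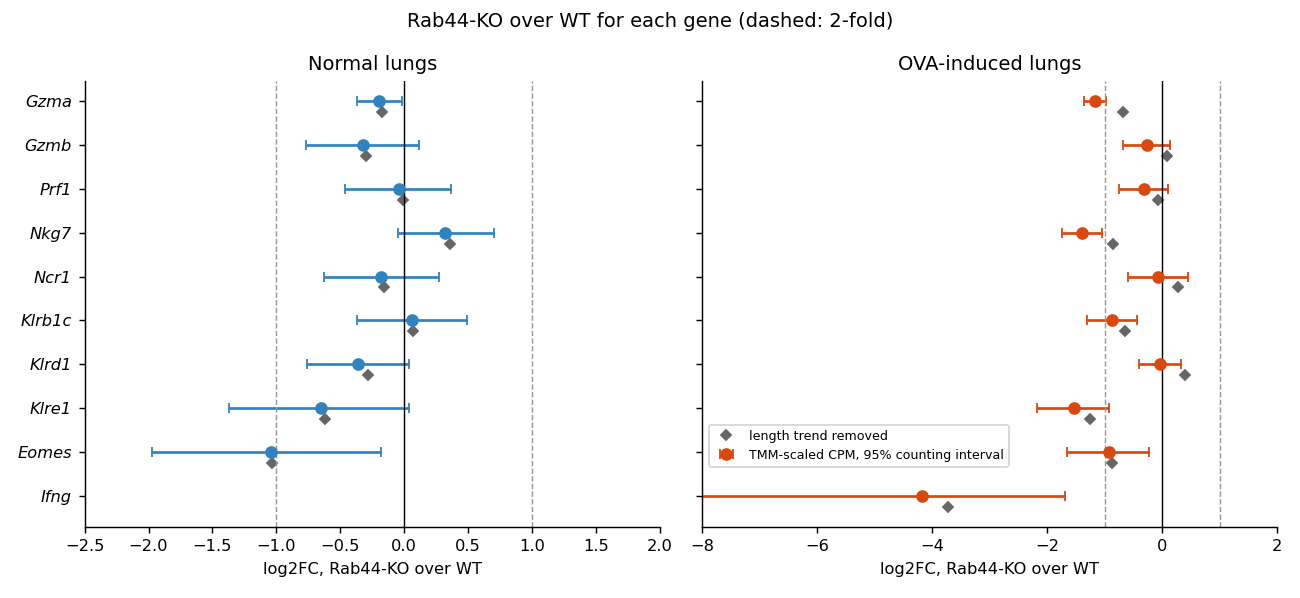
The log2FC of Rab44-KO over WT in normal (left) and OVA-induced (right) lungs for each gene, 1 library per group (circles with exact 95% counting intervals; diamonds, after removal of the trend with gene length; dashed lines, 2-fold). Ifng is not drawn at left, where it had under 10 counts, and its interval at right runs past the axis to -9.70, and Gzma, Nkg7, Klre1 and Ifng lie beyond 2-fold lower after OVA induction.

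Between normal and OVA-induced lungs, Nkg7 and Ifng rose in WT mice, and no gene passed 2-fold in Rab44-KO mice. In WT lungs 2 of 10 rose more than 2-fold, Nkg7 with a log2FC of 1.20 (0.88 to 1.54) and Ifng with 1.96 (0.53 to 3.76), against 8.99% of 19023 tested genes, and none fell, against 5.2%. Klre1 was higher by 0.88 (0.36 to 1.42), Klrb1c by 0.42 (0.03 to 0.82) and Gzma by 0.28 (0.12 to 0.44). Gzmb (0.10), Prf1 (0.04) and Klrd1 (-0.02) had intervals that included 0. In Rab44-KO lungs none of the 9 tested genes passed 2-fold in either direction, where 6.44% of 19073 tested genes rose and 3.85% fell (1229 and 734 genes, or 1287 and 481 with TPM). Gzma was lower by a log2FC of -0.69 (-0.89 to -0.48), Nkg7 by -0.51 (-0.90 to -0.12) and Klrb1c by -0.50 (-0.97 to -0.04) than in normal Rab44-KO lungs. Klre1 stood at 0.00 (-0.78 to 0.78) and Klrd1 at 0.29 (-0.11 to 0.70). The median log2FC was 0.35 for the 10 genes tested in WT and -0.24 for the 9 tested in Rab44-KO lungs. These medians were 0.21 and -0.19 without the trend with gene length, and 0.17 and -0.11 with TPM. The WT and Rab44-KO responses share no library, but each shares its libraries with the genotype comparisons above.

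Gene length moved with the genotype ratio after OVA induction. Over all tested genes the median log2FC of OVA-induced Rab44-KO over WT was -0.38 in the shortest of 4 equal length classes and 0.33 in the longest, while the normal libraries gave -0.04 and 0.05. Nkg7 and Gzma are short, at 0.238 and 0.258 of the length of the median tested gene, and only 6.49% and 7.31% of tested genes are shorter. Klrd1 (0.368), Ncr1 (0.437) and Gzmb (0.442) are also short, and their genotype log2FC before this trend was removed were -0.04, -0.08 and -0.27. After removal of the running median along length, Nkg7 stood at -0.86, Gzma at -0.68, Klrb1c at -0.65 and Klre1 at -1.25, and Gzmb, Ncr1 and Klrd1 at 0.08, 0.28 and 0.40. Under this setting 2 genes, Klre1 and Ifng, remained beyond 2-fold, and the difference between Klrd1 or Ncr1 and Gzma or Nkg7 kept its direction. Why length and the ratio moved together was not tested.

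**Figure D4:**
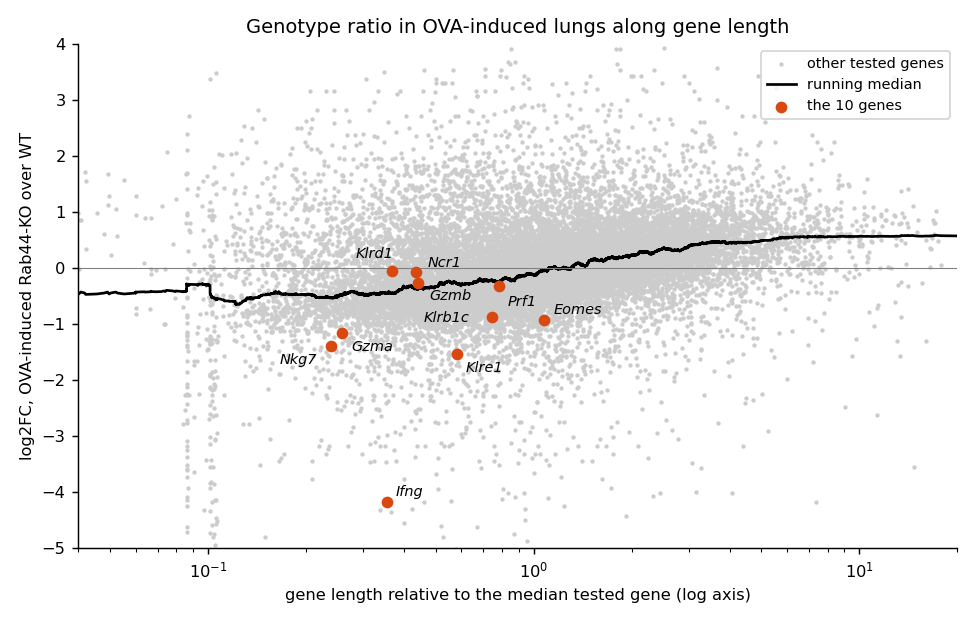
The log2FC of OVA-induced Rab44-KO over WT (1 library each) against gene length relative to the median tested gene (log axis), for tested genes (gray), the 10 genes (orange) and the running median along length (line); points beyond the axes are not drawn. Gzma and Nkg7 lie below the line of genes of their length, and Klrd1 and Ncr1 above it.

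Summed over the 10 genes, the level in the normal pair was 68.6 CPM (65.0 to 72.5) in WT and 61.0 (57.5 to 64.7) in Rab44-KO lungs. In the OVA-induced pair it was 87.2 (83.0 to 91.4) and 47.2 (44.2 to 50.4), a log2FC of -0.88 (-1.0 to -0.77), which was -0.48 without the length trend. Gzma made up 45.4%, 44.5%, 43.5% and 35.7% of the summed counts. The 4 granule genes together had a log2FC of Rab44-KO over WT of -1.01 (-1.15 to -0.87) after OVA induction, and the 4 receptors -0.52 (-0.74 to -0.29). These sums stood at -0.56 and -0.16 without the length trend and at -0.79 and -0.07 with TPM. Lists of T cell, B cell and pan-leukocyte markers moved in the same comparison. The 16 T cell markers summed to 137, 136, 266 and 145 CPM, with a summed log2FC between genotypes after OVA induction of -0.88 (-0.95 to -0.81), or -0.63 without the length trend and -0.76 with TPM. Of these markers, 7 of the 16 fell more than 2-fold after OVA induction, against 7.34% of all tested genes, none did without the length trend, and none was at 0 in any library. The 10 genes had 0.502 counts per count of these T cell markers in normal WT lungs and 0.449 without Rab44, and 0.327 and 0.326 in the OVA-induced pair. Relative to T cell markers, the OVA-induced genotypes thus differed by 0.00 on the log2 scale, with an interval of -0.14 to 0.13, and without Gzma by 0.18 (0.02 to 0.34). Against 6 pan-leukocyte markers the ratio dropped from 0.135 in normal WT to 0.0713 in OVA-induced WT lungs, and from 0.118 to 0.0636 in Rab44-KO lungs. Between the OVA-induced genotypes this ratio changed by -0.16 (-0.28 to -0.04), and the ratio to 6 B cell markers by -0.23 (-0.35 to -0.10). Without Gzma these changes were 0.02 (-0.13 to 0.17) and -0.04 (-0.20 to 0.12). After removal of the length trend the summed log2FC was -0.48 for the 10 genes and -0.63, -0.62 and -0.46 for T cell, pan-leukocyte and B cell markers. Under this setting the sum of the 10 genes was less far below 0 than those of T cell and pan-leukocyte markers. With TPM the values were -0.66, -0.76, -0.55 and -0.45, in the same order. No interval was computed for the ratios under these settings. The part of T cells in the values of the 10 genes was not tested. Nor was that of NK cells in the T cell list, which holds Cd247, Cd2 and Lck.

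**Figure D5:**
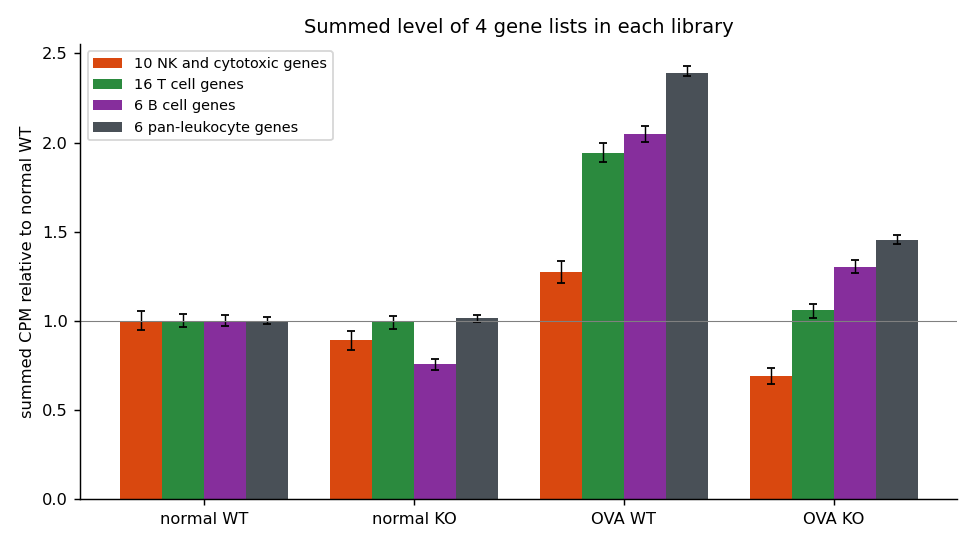
Summed CPM of the 10 NK and cytotoxic genes and of T cell, B cell and pan-leukocyte marker genes in each library, relative to normal WT lungs (bars, 1 library each; error bars, exact 95% Poisson intervals of the sum). In OVA-induced WT lungs the 10 genes reach less above normal WT than the other lists do, and in OVA-induced Rab44-KO lungs they lie below it.

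Markers of 2 other possible sources of these transcripts were also read. The CD8 T cell markers Cd8a (114, 143, 247 and 191 counts) and Cd8b1 (93, 87, 179 and 101 counts) had genotype log2FC of -0.38 (-0.66 to -0.10) and -0.83 (-1.20 to -0.48) after OVA induction. They stood at -0.23 and -0.46 without the length trend and at -0.05 and -0.50 with TPM. For mast cells and basophils, 9 markers, leaving out Kit because other lung cells express it, summed to 156, 109, 245 and 128 counts, a genotype log2FC after OVA induction of -0.95 (-1.27 to -0.63). Kit went the other way, from 3068 to 4514 counts (0.55), and with it the list summed to a log2FC of 0.48 (0.41 to 0.54). Of the whole list of 10, Kit included, 7 were tested after OVA induction and 4 fell, against 7.34% of all tested genes, or 3 without the length trend. Prss34 and Mcpt1 were at 0 in normal WT lungs, and Mcpt1 was also at 0 in OVA-induced Rab44-KO lungs. The part of either cell type in Gzmb or the other members was not tested.

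The other genes of the NK and cytotoxic program were read from lists of related genes. The numbers that fell or rose are to be held against the 7.34% of all tested genes that fell and the 8.4% that rose after OVA induction. Over all 19259 tested genes, 1104 fell and 1738 rose without the length trend, and 777 fell and 2602 rose with TPM. The effect of the length trend and TPM on all lists and sums other than those of the 10 genes was computed after seeing the data. Of 34 other NK receptors and adaptors, all 34 were tested after OVA induction, 11 fell and none rose in Rab44-KO lungs, with a median log2FC of -0.68. Without the length trend 5 fell and 1 rose, with a median of -0.46, and with TPM 6 fell and 2 rose, with a median of -0.33. The inhibitory and activating Ly49 receptors among them, 9 Klra genes, summed to 287 and 203 counts in the normal pair and 331 and 146 in the OVA-induced pair. Of these paralogs, 8 share no 150-base stretch with a transcript of another gene, and Klra8 shares 6.03% of its stretches with the pseudogene Klra14-ps. Between genotypes the summed log2FC was -0.43 (-0.69 to -0.16) in normal and -1.19 (-1.48 to -0.91) in OVA-induced lungs, and the latter was -0.77 without the length trend and -0.80 with TPM. Klrk1, the activating receptor NKG2D, had 186, 108, 190 and 125 counts and was lower in both Rab44-KO libraries, with log2FC of -0.71 (-1.07 to -0.36) and -0.61 (-0.95 to -0.28). The largest changes with at least 100 counts were those of Slamf7 (598 to 215 counts), a self-ligand receptor of NK cells and other leukocytes, and of the signaling adaptors Hcst (132 to 51) and Tyrobp (1947 to 792), the latter also used by myeloid cells. Without the length trend Slamf7 stood at -1.71, and Hcst (-0.80) and Tyrobp (-0.84) did not pass 2-fold. Of the 34 values, 28 were below 0. Genes above 0 included Itga2 (525 to 922 counts), Cd160 (15 to 30, 0.98), Cd226 (156 to 193) and Cd244a (218 to 236). Among the Klra genes, Klra17 was nearly level (26 and 25 counts).

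Of 15 other granzymes and cytotoxic effectors, 9 were tested after OVA induction, and 2 fell: Gzmk, from 44 to 9 counts, and Ctsw, a cathepsin of cytotoxic cells, from 235 to 98. Without the length trend Gzmk stood at -1.84 and Ctsw, at -0.90, did not pass 2-fold. Gzmd, Gzme, Gzmf, Gzmg and Gzmn had no count in any library, where 3 counts, the limit set for a count of 0, is 0.154 to 0.164 CPM and the exact interval of 0 counts ends at 0.189 to 0.202 CPM. Gzmm had 34, 37, 29 and 42 counts and was not lower in Rab44-KO lungs. Genes of the machinery that docks and fuses cytotoxic granules went both ways, with a median log2FC of -0.03 over 10 genes, 1 of which fell. This was Coro1a, an actin regulator of leukocytes (6346 to 2839 counts, -1.17), which stood at -0.88 without the length trend. Vamp8, a SNARE protein of granule fusion, was at -0.60 (5752 to 3824 counts, TPM 796 to 659). Lyst, a regulator of lysosome-related organelle size, was at 0.61 (1047 to 1606 counts, TPM 8.25 to 15.8). In this list none fell without the length trend, where the median was -0.09, and with TPM the median was 0.30. Unc13d (1488 and 1466 counts in OVA-induced WT and Rab44-KO lungs) and Rab27a (1879 and 1865) prime and tether such granules. Together with Stx11 (548 and 550) they differed least in CPM. In TPM they were higher in Rab44-KO lungs: 30.4 and 37.3 for Unc13d, 51.2 and 63.4 for Rab27a, and 12.8 and 16.1 for Stx11. Of 11 transcription factors, Eomes included, 1 fell, a share near that of all tested genes. This was Id2, needed for NK and other innate lymphocytes, from 2243 to 1112 counts. Its log2FC was -1.02 (-1.13 to -0.92), or -0.57 without the length trend. None of the 11 fell or rose without the length trend, and with TPM none fell and 1 rose. Of the 11 values, 7 were below 0. Zeb2 was higher in Rab44-KO lungs, from 1911 to 3555 counts, and so were Nfil3 (265 to 383) and Ikzf3 (574 to 703). Tbx21, the T-box factor T-bet, had 50, 34, 50 and 33 counts, with an interval after OVA induction of -1.29 to 0.05.

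All 7 cytokines and chemokines that NK cells make, Ifng included, fell in OVA-induced Rab44-KO against WT lungs, with a median log2FC of -1.5. With Xcl1, which had no count in the Rab44-KO library, set to its bound, this median was unchanged at -1.5. Without the length trend the median was -0.98 and 3 genes fell (Ifng, Xcl1 and Csf2), with Ccl3 at -0.98, Ccl4 at -0.96, Tnf at -0.86 and Ccl5 at -0.68, and with TPM 5 fell. Ccl5 had 188, 238, 383 and 174 counts and Ccl3 had 19, 24, 110 and 39, and both are chemokines that attract leukocytes. Xcl1, the ligand of XCR1 on cross-presenting dendritic cells, had 13, 5, 21 and 0 counts, 7.05-fold lower after OVA induction if the 0 is set to 3 counts, with an exact interval that ends at a log2FC of -2.39. Csf2, which many lymphoid and epithelial cells also make, went from 46 to 6 counts. Of the cytokines and ligands that activate NK cells, none of 9 tested fell and 1 rose. Il15, which NK cells need to survive, had 181, 126, 144 and 99 counts and was lower in both Rab44-KO libraries, with log2FC of -0.45 (-0.79 to -0.11) and -0.55 (-0.93 to -0.17). Of 20 genes of the IFN-γ receptor and its targets, 4 fell and none rose, with a median of -0.68. Removal of the length trend left 2 that fell and a median of -0.59, and TPM left 2 and a median of -0.35. In normal lungs none fell, against 2.0% of all tested genes, and 2 rose, against 2.77%, or 1 with TPM. The chemokine Cxcl10 had 8, 36, 107 and 21 counts, so that Rab44-KO was higher than WT in normal lungs by a log2FC of 2.23 (1.11 to 3.56) and lower in OVA-induced lungs by -2.35 (-3.11 to -1.67).

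The genes closest in pattern to the 10 genes over the 4 libraries were sought among 13893 others with at least 100 counts in their highest library, by the Euclidean distance between centered log2 CPM profiles. The mean profile of the 10 genes was 0.10 and -0.20 in the normal pair and 0.59 and -0.49 in the OVA-induced pair. Id2 was the nearest, at a distance of 0.068, followed by Apex1 (0.0686), Uqcc2 (0.0755), Clec11a (0.0788) and Ska3 (0.0794). Ifng, with 1 to 20 counts, weighed heavily in this mean. Without it, a choice made after seeing the data, none of the 5 was among the nearest 5, and Eif6 was the nearest at 0.0116.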

How the data were processed

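RNA was measured by RNA-seq in 4 lung libraries, 1 per group, grouped by their labels. Per the labels and methods, the authors used HISAT2 to place trimmed 150-bp read pairs on GRCm38 and featureCounts to obtain the raw counts they deposited. The authors also deposited TPM, in which every gene's count is divided by a fixed length and a factor of the library. The study names DESeq2 for its own differential expression. The library kit was directional. Tool versions and the strand and multi-mapping settings of the counting are not given in the sources used here.

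Counts were scaled with edgeR 4.0.16 in R 4.3.3 (TMM factors 0.973 to 1.02). The log2FC used a prior count of 0.125. Because no group had more than 1 library, no test was run. Ratios carry Clopper-Pearson, CPM Poisson, medians order-statistic, and differences of log2FC or of log2 ratios to marker lists delta-method 95% intervals, and the scripts were tested on simulated data. Relative gene length came from the ratio of counts to TPM. Only 1.2% of 27552 matched genes start at the same base in the deposited coordinates and GENCODE M21, so the annotation behind the counts may be of another build than the named GRCm38, and GENCODE and RefSeq positions are printed. Python 3.11.15, pandas 2.3.3, scipy 1.17.1 and matplotlib 3.10.9 were used.

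The 10 genes and all lists were chosen with earlier results of these data known. Named genes were the 10 members, and from each list the 3 with the largest absolute log2FC between OVA-induced libraries and at least 100 counts, the 3 with most counts in OVA-induced WT lungs and defining markers, of which the text gives those its results turn on. Gzmm, the granzymes without counts, Unc13d, Rab27a, Stx11, Ccl4, Tnf, Mcpt1, Prss34 and the Klra sum were added after their values were seen. Lists of CD4 T and myeloid genes were also read: 5 of 9 and 3 of 8 tested genes fell in Rab44-KO against WT lungs after OVA induction, against 7.34% of all tested genes, and 1 myeloid gene rose. Of 6 tested B cell markers 1 fell, and of 6 pan-leukocyte markers 2. In the same order, 4, 1, 0 and 0 fell without the length trend and 3, 0, 0 and 0 with TPM. Alternatives were DESeq2 1.42.0 size factors, total counts, TMM on 2 libraries, a prior count of 2, TPM with a pseudocount of 0.1, thinned counts, removal of the length trend, count minimums of 1 and 50, a 1.5-fold threshold and intervals beyond 2-fold.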

Additional observations from a re-analysis of the deposited data

Results flagged for a closer look

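In 3 of the 10 genes and in their sum, the OVA-induced library was higher than the normal library in WT lungs and lower in Rab44-KO lungs, with counting intervals that left out 0 in both genotypes. The log2FC of OVA-induced over normal lungs was 0.28 in WT and -0.69 in Rab44-KO lungs for Gzma, 1.20 and -0.51 for Nkg7, and 0.42 and -0.50 for Klrb1c. For the sum of the 10 genes it was 0.34 and -0.37. Without the trend with gene length these pairs were 0.09 and -0.47, 1.01 and -0.29, 0.32 and -0.41, and 0.18 and -0.21, and with TPM they were 0.11 and -0.56, 1.03 and -0.38, 0.24 and -0.37, and 0.21 and -0.32. No interval was computed under these settings, so whether they still leave out 0 is not known. With 1 library per group, the difference between genotypes was not tested.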

How the results depend on the processing

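No paired analysis was run, and because each group has 1 library no replicate could be left out. An additive model of genotype and condition over the 4 libraries was not run. Of 347 values of single genes under the scaling, prior count, TPM, thinning and length alternatives, 338 stayed within their counting interval and no called value changed sign. The 9 that moved were all under TPM or removal of the length trend and belonged to Gzma, Nkg7 and Klrd1. Without the length trend the summed log2FC of the 10 genes was -0.48 for Rab44-KO over WT after OVA induction, and OVA-induced over normal was 0.18 for WT and -0.21 for Rab44-KO mice. With TPM the genotype value was -0.66 and the WT response 0.21. TPM shifted all genes by a median of 0.33, -0.17 and 0.12 in these 3 comparisons, and moved the numbers over all genes after OVA induction from 1617 higher and 1413 lower to 2602 and 777. The number of genes that fell after OVA induction, 4, became 2 without the length trend and 2 when the whole interval had to pass 2-fold. The 1 gene that fell in normal lungs, Eomes, became 0 with a prior count of 2, TPM, a minimum of 50 counts or the whole interval, and 2 genes fell at 1.5-fold. The 2 that rose in WT lungs after OVA became 1 with a minimum of 50 counts and 0 with the whole interval, and in Rab44-KO lungs, where none fell, 1 did with a minimum of 1 count or at 1.5-fold. Fewer genes were tested at 50 counts, and a prior count of 2 shrinks folds of low counts. Depth limits Ifng, Eomes and Klre1 most, and single libraries limit every value.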
